A study of Mus musculus with 6 samples.

Results

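The genes described here make and export the ceramides of epithelial barriers. They are 10 named genes: *Sptlc3*, *Degs1*, *Degs2*, *Elovl1*, *Elovl4*, *Elovl7*, *Cers3*, *Ugcg*, *Abca12* and *Smpd3*. They were picked by name from the 47643 gene IDs in the count files, and all 10 were listed there. The RNA came from salivary gland organoids (mSGOs), which form in Matrigel from single cells of the adult mouse submandibular gland. The organoids came from C57BL/6 mice labelled as 8-12 weeks old, and per the methods of the study only females were used. They were collected after 5 or 7 days of culture, with 3 libraries for each day, and mice 1, 2 and 3 are named at both days. Every library was untreated and non-irradiated, and all shared WRY medium, with EGF, FGF2, insulin, dexamethasone, the ROCK inhibitor Y27632 and medium conditioned with R-spondin1 and Wnt3a. Day of culture was the only difference between the groups that the labels give. Libraries were made with a 3′ mRNA kit that reads each transcript near its 3′ end, so a count is not divided by gene length. Levels are given as CPM (counts scaled to 1e+06 per library, corrected for composition).

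Ceramides are built in the endoplasmic reticulum. Serine palmitoyltransferase condenses serine with an acyl-CoA to start the sphingoid base, ELOVL elongases lengthen the fatty acid, a ceramide synthase joins both, and a DEGS enzyme finishes the base. In skin and other cornified epithelia, acids of extreme length are used. The product is capped with glucose by UGCG, loaded into lamellar granules by the lipid transporter ABCA12 and secreted, and it is then returned to ceramide outside the cell, where it seals the space between cornified cells. Salivary ducts are not cornified. The list thus asks how much of this machinery was transcribed in salivary gland organoids, and whether its RNA differed between the days.

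Total gene counts ran from 1918198 to 2837397 per library, and 3 counts in a library corresponded to 1.04 to 1.51 CPM. Of 15792 genes tested with the quasi-likelihood F test of edgeR, 1901 (12.0%) passed the threshold, an adjusted p under 0.05 with an absolute log2 fold change over 0.6. Of these, 1140 (7.22%) were higher and 761 (4.82%) lower at day 7. Reads outside any single gene made up 13.7% to 14.4% of the reads at day 5 and 9.12% to 9.74% at day 7, and whether other handling differed between the days was not tested. The libraries held duct epithelium: *Krt5*, *Krt14*, *Krt7* and *Epcam* were present in all 6. Acinar markers were low, at a summed 7.03 to 12.6 CPM at day 5 and 11.9 to 35.7 CPM at day 7, with *Prol1*, *Dcpp1* and *Dcpp2* at 0 counts in every library. *Aqp5* was counted in all 6 libraries, at 5.02 to 9.72 CPM and 9.97 to 24.0 CPM, and *Pip* rose from 3 counts to 46 (edgeR, adjusted p = 0.0143). The day 7 counts of *Pip* were 1, 24 and 21 in mice 1, 2 and 3, so its groups overlapped through mouse 1. In such bulk samples, fewer cells of a type and less RNA per cell cannot be told apart.

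Among the 10 genes, *Elovl4* and *Degs2* passed the threshold, both higher at day 7, and 8 did not pass. All 10 met the filter on low values, at least 1 count in at least 2 libraries, *Degs2* through day 7 alone. All 3 libraries of day 7 lay above all 3 of day 5 for 4 of the genes, *Elovl4*, *Elovl7*, *Degs1* and *Degs2*, against 15.4% of all genes tested. None of the 10 lay wholly below, against 15.5% of all genes. The fitted log2 fold change was above 0 for 9 of 10 and had a median of 0.53, where the median of all genes tested was -0.01. Of these 9, *Sptlc3* (1.74 on 2 and 8 counts) and *Smpd3* (1.26 on 1 and 3 counts) rest on few reads, and both lie above that median of 0.53. Summed over the 10 genes, the level was 250, 280 and 248 CPM at day 5 in mice 1, 2 and 3, and 341, 360 and 307 CPM at day 7. The sum was higher at day 7 within every mouse. Its level was carried by a few abundant genes, *Degs1* first. In mean CPM the largest rises were those of *Elovl4* (5.68 to 45.7) and *Cers3* (32.7 to 53.1), against 113 to 122 for *Degs1*.

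**Figure D1:**
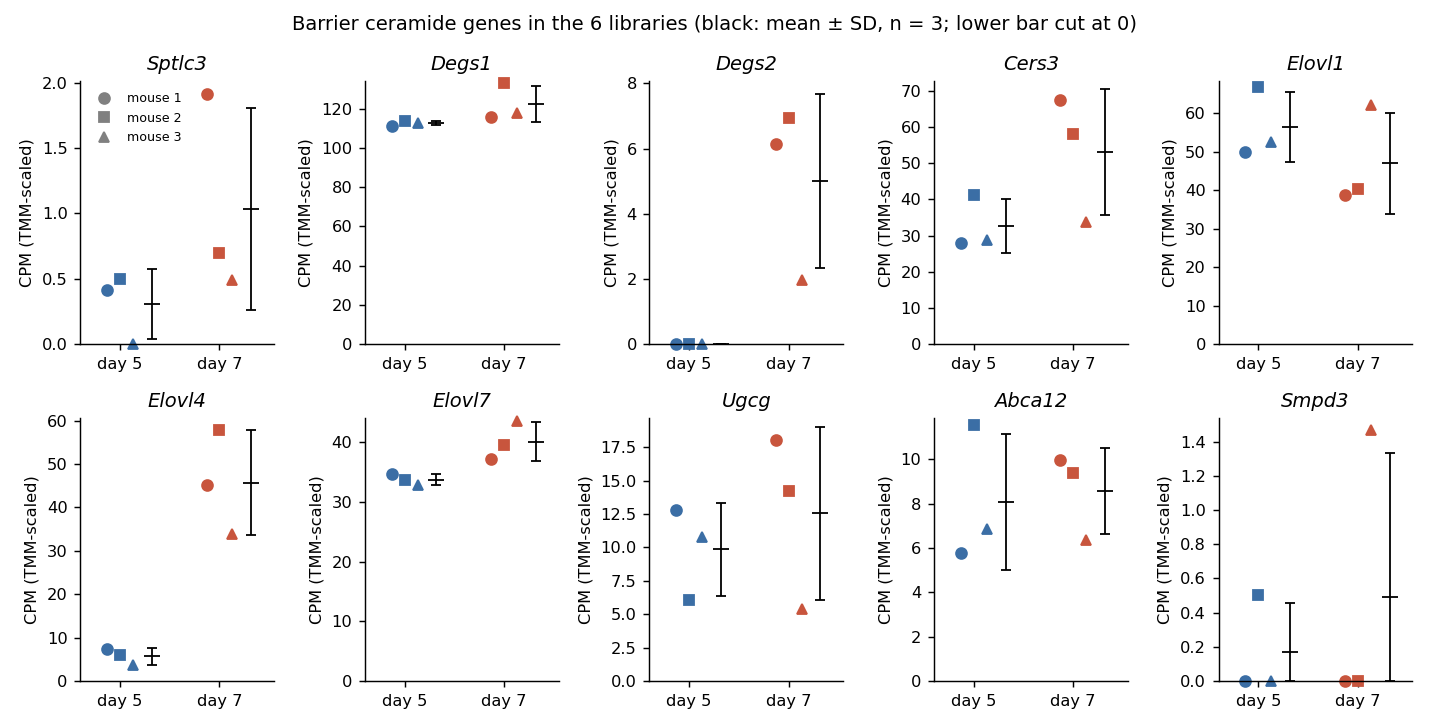
Level of each of the 10 genes in every library, in CPM on a linear axis from 0 that differs between panels, with 1 point per mouse and black bars for the mean ± SD (n = 3). *Elovl4* moves from 3.60–7.42 CPM to 33.8–58.0 CPM, the 3 day 5 points of *Degs2* lie at 0, and the points of *Abca12*, *Elovl1* and *Ugcg* mix.

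The promoters of the 2 genes that passed are shown with that of *Elovl7*, an elongase that did not, so that their letters can be set beside the RNA values. Each window runs from 250 bases before to 50 bases after the RefSeq start, 5′ to 3′ on the gene's strand, in build GRCm38.p6. Capitals mark matches to 4 motifs: the GC box (GGGCGG or CCGCCC), the grainyhead-like site (CCGGTT or AACCGG), the E-box (CACGTG) and the CCAAT box (CCAAT or ATTGG). The *Elovl4* window lies at chr9:83806256-83806555 on the minus strand, the *Degs2* window at chr12:108702257-108702556 on the minus strand, and the *Elovl7* window at chr13:108214154-108214453 on the plus strand.
Elovl4: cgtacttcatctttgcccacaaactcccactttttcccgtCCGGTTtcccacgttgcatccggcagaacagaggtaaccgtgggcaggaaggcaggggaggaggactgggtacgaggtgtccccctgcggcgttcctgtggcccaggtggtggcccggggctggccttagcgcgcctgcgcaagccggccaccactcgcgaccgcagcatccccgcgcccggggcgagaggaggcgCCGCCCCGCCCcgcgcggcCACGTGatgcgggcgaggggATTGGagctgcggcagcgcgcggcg
Degs2: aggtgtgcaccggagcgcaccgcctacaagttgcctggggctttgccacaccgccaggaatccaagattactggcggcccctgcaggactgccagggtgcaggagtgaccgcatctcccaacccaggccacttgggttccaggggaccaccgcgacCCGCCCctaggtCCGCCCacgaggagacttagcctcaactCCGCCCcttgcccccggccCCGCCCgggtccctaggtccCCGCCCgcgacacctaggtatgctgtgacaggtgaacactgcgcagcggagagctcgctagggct
Elovl7: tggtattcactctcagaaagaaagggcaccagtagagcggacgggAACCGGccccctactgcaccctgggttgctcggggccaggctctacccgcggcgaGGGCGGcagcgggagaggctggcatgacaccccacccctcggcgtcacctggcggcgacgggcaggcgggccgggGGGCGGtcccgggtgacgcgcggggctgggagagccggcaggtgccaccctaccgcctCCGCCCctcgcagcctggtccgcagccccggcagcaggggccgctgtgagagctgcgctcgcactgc

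Letters of the windows differed between the genes that rose. The *Elovl4* window held a grainyhead-like site starting at position -210, a pair of GC boxes that overlap by 1 base at -14 and -9, an E-box at 6 and a CCAAT box at 26. The *Degs2* window held 5 GC boxes and none of the other motifs. The *Elovl7* window, from a gene that did not pass, held a grainyhead-like site at -205 and 3 GC boxes. A match on either strand is a description of letters, not evidence of binding. Of 32851 mouse promoters of the same length, 35.7% held a GC box, 37.4% a CCAAT box, 7.15% the palindromic E-box and 6.83% the grainyhead-like site. The AP-1 motif (TGANTCA, in 7.81% of promoters) and the TATA box (TATAAA on the gene's strand or TTTATA, in 13.6%) were in no window of the 9 members that could be matched. The windows shown were rich in G and C, at 71.0% for *Elovl4*, 67.7% for *Degs2* and 74.0% for *Elovl7*, against a median of 52.7% over all promoters. Not all members were: *Abca12*, *Cers3* and *Sptlc3* lay below that median, at 51.3%, 50.7% and 37.3%. *Degs1*, *Elovl1* and *Ugcg* lay above it.

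*Elovl4* gave the clearest difference of the list. ELOVL4 makes the ultra-long fatty acids of acylceramides, and the gene (ENSMUSG00000032262, chr9:83660744-83688430 in GRCm39, minus strand, 6 exons) was counted 18, 12 and 10 times at day 5 in mice 1, 2 and 3, and 118, 167 and 69 times at day 7. In CPM these were 7.42, 6.02 and 3.60, then 45.3, 58.0 and 33.8. Every library of day 7 stood far above every library of day 5, with no overlap. The mean went from 5.68 ± 1.93 to 45.7 ± 12.1 CPM (SD, n = 3), a fitted rise of 3.02 ± 0.32 on the log2 scale (SE), or 8.11-fold with a 95% interval of 5.10 to 12.9 (edgeR, adjusted p = 6.69e-06). Within the mice the ratio was 6.10, 9.62 and 9.38. Ranked by mean level among the 15792 genes, it moved from place 9201 to place 3691.

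The other elongases of the list did not pass. ELOVL1 extends saturated acyl chains to the very long range common to most tissues, and its gene (ENSMUSG00000006390, chr4:118284346-118290150, plus strand, 8 exons) read 49.9, 66.8 and 52.6 CPM at day 5 and 38.7, 40.3 and 62.2 CPM at day 7. The groups overlapped through mouse 3, and the log2 fold change was -0.27 ± 0.23 (95% interval -0.76 to 0.22, edgeR adjusted p = 0.504). Of its last 500 bases, 53 lie under exons of *Cdc20* on the opposite strand, a cell-cycle gene counted 167, 239 and 248 times at day 5 and 138, 70 and 45 times at day 7. Whether *Cdc20* reads entered the *Elovl1* counts was not tested, since the sources used here do not say whether counting used strand.

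*Elovl7*, for an elongase that acts on saturated very-long-chain acyl-CoAs (ENSMUSG00000021696, chr13:108350937-108423639, plus strand, 8 exons), read 34.6, 33.6 and 32.8 CPM at day 5 and 37.2, 39.6 and 43.6 CPM at day 7. The groups did not overlap, but the step was small: the log2 fold change was 0.25 ± 0.22 (95% interval -0.20 to 0.70, edgeR adjusted p = 0.496). An upper bound of 0.70 still left room for a difference past the 0.6 threshold.

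*Cers3* came closest to the threshold among the 8 that did not pass. CERS3 is the ceramide synthase that accepts ultra-long acyl chains, and its gene (ENSMUSG00000030510, chr7:66393252-66473439, plus strand, 10 exons) read 28.0, 41.2 and 28.8 CPM at day 5 and 67.5, 58.0 and 33.8 CPM at day 7. Each mouse had the higher value at day 7, by 2.41, 1.41 and 1.17 times, but day 7 of mouse 3 lay below day 5 of mouse 2. The log2 fold change was 0.71 ± 0.26 (95% interval 0.16 to 1.27, edgeR unadjusted p = 0.0140, adjusted p = 0.0864). With the mouse as a block, the value was 0.67 and the adjusted p 0.0496, past the threshold. It also passed without day 7 replicate 3, at 0.95 (adjusted p = 0.00299), and with no filter on low counts (adjusted p = 0.0326), so the side of the threshold depended on these choices. Over the alternatives the adjusted p ran from 0.00299 to 0.301.

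The sphingoid base is made by serine palmitoyltransferase and finished by the DEGS enzymes, and among these genes *Degs2* changed. DEGS2 can both desaturate the base and hydroxylate it to phytosphingosine, the base of many skin ceramides. Its gene (ENSMUSG00000021263, chr12:108644970-108668586, minus strand, 3 exons) had 0 counts in all 3 libraries of day 5 and 16, 20 and 4 counts at day 7, or 6.14, 6.94 and 1.96 CPM. All 3 mice thus went from no read to a low level, lowest in mouse 3. *Degs2* met the filter on low values through day 7 alone, so once tested it could only come out higher. Against a floor of 3 counts over the day 5 libraries together, the pooled level was at least 12.7-fold higher at day 7 (edgeR, adjusted p = 0.00112). The bound covers the 0 of day 5 only. It takes the pooled day 7 counts as exact, without their counting error or the spread between mice. This bound fell to 8.44 without day 5 replicate 1 and to 7.82 without day 5 replicate 3, because less depth then stood behind the 0. Exons of *Evl* lie on the opposite strand of the locus but not under the last 500 bases of *Degs2*.

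*Degs1*, for the desaturase that completes ordinary ceramide in most cells (ENSMUSG00000038633, chr1:182103335-182110389, minus strand, 3 exons), was the most abundant of the 10 on both days. It read 111, 113 and 113 CPM at day 5 and 116, 133 and 118 CPM at day 7. The replicates of day 5 differed by almost nothing, and those of day 7 all lay slightly higher. The log2 fold change was 0.12 ± 0.18 (95% interval -0.26 to 0.50, edgeR adjusted p = 0.739), an interval that lies below the 0.6 threshold.

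*Sptlc3* encodes the serine palmitoyltransferase subunit that widens the range of base lengths (ENSMUSG00000039092, chr2:139335833-139479594, plus strand, 12 exons). It had 1, 1 and 0 counts at day 5 and 5, 2 and 1 at day 7. The sums of 2 and 8 counts gave a ratio per depth of 3.82 with a 95% counting interval of 0.762 to 36.9 (edgeR, adjusted p = 0.327). A difference was not detectable at this depth.

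Genes of the export step did not pass. UGCG adds the glucose that marks ceramide for lamellar granules. Its gene (ENSMUSG00000028381, chr4:59189035-59222845, plus strand, 9 exons) read 12.8, 6.02 and 10.8 CPM at day 5 and 18.0, 14.2 and 5.38 CPM at day 7. It was higher at day 7 in mice 1 and 2 and lower in mouse 3, and the log2 fold change was 0.35 ± 0.39 (95% interval -0.46 to 1.16, edgeR adjusted p = 0.612). *Abca12*, mutated in harlequin ichthyosis (ENSMUSG00000050296, chr1:71281435-71454069, minus strand, 53 exons), read 5.77, 11.5 and 6.84 CPM at day 5 and 9.97, 9.37 and 6.36 CPM at day 7. It was higher at day 7 in mouse 1 alone, with a log2 fold change of 0.13 ± 0.36 (95% interval -0.63 to 0.89, edgeR adjusted p = 0.872). The value was -0.07 without day 5 replicate 1, so no direction can be given. Part of its 3′ end also matches *Mafg* transcripts, so its counts are uncertain. The intervals of both genes reach past 0.6 and do not show equal levels.

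*Smpd3* encodes a neutral sphingomyelinase that releases ceramide from sphingomyelin inside the cell (ENSMUSG00000031906, chr8:106979176-107064670, minus strand, 9 exons). It had 0, 1 and 0 counts at day 5 and 0, 0 and 3 at day 7, at or under the floor on both days. Of its last 500 bases, 381 lie under exons of *Prmt7* on the opposite strand, which had 17 to 36 counts per library. Its source in these counts was not tested.

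**Figure D2:**
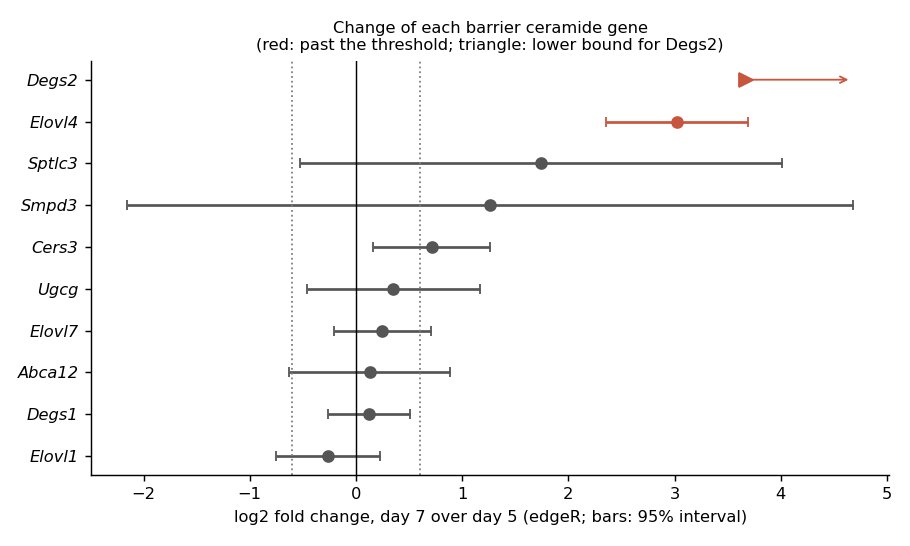
Log2 fold change of day 7 over day 5 for the genes of the list, with 95% intervals from the edgeR fit, dotted lines at the 0.6 threshold, red for genes past it and a triangle at the lower bound of *Degs2*. The interval of *Elovl4* runs from 2.35 to 3.69, that of *Cers3* from 0.16 to 1.27, and those of *Degs1*, *Abca12*, *Elovl1*, *Elovl7* and *Ugcg* cross 0.

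The order of the levels also differed between the days. At day 5 the means ran, in CPM, from *Degs1* at 113 through *Elovl1* at 56.4, *Elovl7* at 33.7, *Cers3* at 32.7, *Ugcg* at 9.87, *Abca12* at 8.05 and *Elovl4* at 5.68 down to *Sptlc3*, *Smpd3* and *Degs2*, which had 2, 1 and 0 counts in all. The ranges of *Elovl7* and *Cers3* overlapped, as did those of *Ugcg* and *Abca12* and those of *Abca12* and *Elovl4*. At day 7 *Degs1* still led with 122 CPM. *Cers3* at 53.1, *Elovl1* at 47.1, *Elovl4* at 45.7 and *Elovl7* at 40.1 CPM followed, and these 4 could not be ordered beyond their spread. *Elovl4* had moved from the lower group to this middle group. Below them came *Ugcg* at 12.5, *Abca12* at 8.57 and *Degs2* at 5.01 CPM, each overlapping with the next. Such orders compare reads at 3′ ends, which also depend on how well each end is annotated.

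Day 7 of mouse 3 was the smallest library of its day, with 2154261 counts. It had the lowest value of its day for 6 of the 10 genes, *Abca12*, *Cers3*, *Elovl4*, *Sptlc3*, *Ugcg* and *Degs2*, and the highest for 3, *Elovl1*, *Elovl7* and *Smpd3*. Of these, *Sptlc3* and *Smpd3* rest on very few reads. How often this library was lowest or highest over all genes was not computed, so these numbers are a description. Without this library the log2 fold change of *Elovl4* was 3.20, and *Degs2*, which could only come out higher, stayed past the threshold.

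Shares within an enzyme family show how its counts were split between isoforms, and they do not depend on the scaling of the libraries. A share also moves when the counts of another isoform change, so a higher share is not in itself a higher level. *Elovl4* made up 1.86%, 1.56% and 0.981% of all *Elovl* counts at day 5 and 13.7%, 19.3% and 11.5% at day 7. The nearest libraries of the 2 days, mouse 1 at day 5 and mouse 3 at day 7, had 95% Wilson intervals of 1.18% to 2.91% and 9.17% to 14.3%, which cover counting error only. The mean was 1.47% ± 0.445 against 14.8% ± 4.02 (SD, n = 3). *Elovl7* went from 8.78% ± 0.140 to 13.1% ± 1.79, and neither range overlapped between the days. *Elovl1* held 14.7% ± 2.46 and 15.4% ± 5.03. The loss of share fell on *Elovl6*, the elongase of common long-chain acids outside the list, with 45.6% ± 3.37 at day 5 and 22.8% ± 2.06 at day 7. *Elovl5*, also outside the list, held the largest mean share at day 7, with 29.4% ± 1.79 and then 33.9% ± 6.13. *Elovl2* and *Elovl3* were at 0 in every library.

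*Cers3* made up 14.7%, 19.6% and 13.4% of all *Cers* counts at day 5 and 31.3%, 32.4% and 23.6% at day 7, with no overlap of the values. The Wilson intervals of the nearest libraries did overlap, at 16.1% to 23.7% for mouse 2 of day 5 and 19.1% to 28.8% for mouse 3 of day 7. Its mean share was 15.9% ± 3.29 and then 29.1% ± 4.79 (SD, n = 3). *Cers2*, whose enzyme prefers very-long-chain acids and which was singled out after its values were seen, held 46.8%, 42.1% and 45.4% at day 5 and 35.4%, 22.7% and 7.88% at day 7. Its own log2 fold change was -1.09 and did not pass (edgeR, adjusted p = 0.0680). *Cers5* held 23.6%, 21.5% and 24.9% at day 5 and 18.3%, 24.7% and 50.3% at day 7, with a day 7 mean of 31.1%, above that of *Cers3*. *Degs2* made up 0 of 809 *Degs* counts at day 5, which pooled over the libraries allows a share of up to 0.371%. At day 7 it made up 5.03%, 4.96% and 1.63%. The Wilson interval of mouse 3 at day 7, 0.637% to 4.12%, overlapped those of the single day 5 libraries, with upper limits of 1.40%, 1.67% and 1.21%. Those of mice 1 and 2 at day 7 began at 3.12% and 3.24%. *Sptlc3* held 0.712% ± 0.653 and 2.96% ± 1.41 of the counts of *Sptlc2* and *Sptlc3* together, on very few reads. The 6 shares of members were tested by a two-sided exact permutation test over libraries, where 3 against 3 cannot go below p = 0.1. That smallest p was reached by all except *Elovl1* (exact p = 0.9), and after adjustment over the 6 it was 0.12, so no share can pass in this design.

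**Figure D3:**
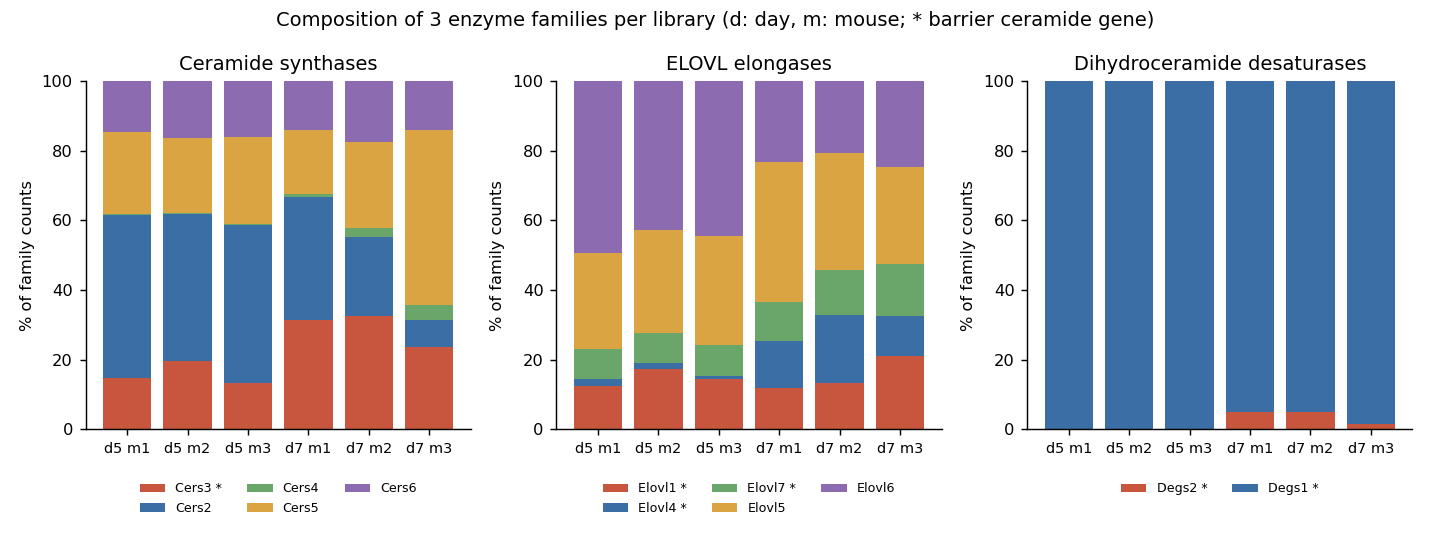
Share of each isoform in the counts of its enzyme family, in percent, as stacked bars with 1 bar per library, for the ceramide synthases, the ELOVL elongases and the dihydroceramide desaturases. The *Elovl4* share lies at 0.981% to 1.86% at day 5 and at 11.5% to 19.3% at day 7, and the *Cers3* share at 13.4% to 19.6% and 23.6% to 32.4%.

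The remaining genes of ceramide metabolism show the surroundings of these 10. Of 63 such genes on a list written from general knowledge, 57 were tested, 11 rose, 3 fell and 43 did not pass, where 7.22% of all genes tested were higher and 4.82% lower. The 3 that fell are near that background, and the same percentages stand behind each role list. Their median log2 fold change was 0.28. Of the 63, 4 were at 0 in every library: *Cers1*, *Elovl2*, *Elovl3* and *Ugt8a*.

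Of 11 genes tested for making and finishing acylceramide, 4 rose, 0 fell and 7 did not pass. Of these 11, 4 met the filter on low values only thanks to day 7 (*Alox12b*, *Fa2h*, *Aloxe3* and *Sdr9c7*), so their direction was partly fixed by the filter. The median log2 fold change of the group was 1.13, or 1.02 with genes absent at day 5 set to their bound, and is given as a description. *Alox12b*, for the lipoxygenase that oxidises the linoleate of acylceramide, had 0 counts at day 5 in every library and 28, 58 and 11 at day 7. It thus entered the test through day 7 alone. The pooled level was at least 30.9-fold higher, again with the day 7 counts taken as exact (edgeR, adjusted p = 8.78e-05). The bound was 20.5 without day 5 replicate 1, 19.0 without day 5 replicate 3 and 20.1 without day 7 replicate 2. *Fa2h*, for the fatty acid 2-hydroxylase, was counted once in the 3 libraries of day 5 and 35 times in those of day 7. Per depth this ratio was 33.4, with 5.62 to 1358 as its 95% counting interval (edgeR, adjusted p = 0.00257). Without day 5 replicate 3, which held that count, it became at least 6.84-fold. The ratio was 22.2 without day 5 replicate 1. The other risers, named after their values were seen, were *Slc27a4*, a fatty acid transport gene at 12.3 and then 24.9 CPM, and *Tgm1*, the transglutaminase of the cornified envelope, at 2.51 and 8.93 CPM. Both were marginal (edgeR, adjusted p = 0.0334 and 0.0437). *Slc27a4* was lost when any day 5 replicate or day 7 replicate 1 was left out, and with all libraries under DESeq2 and with thinned counts. *Tgm1* was lost when any library but day 7 replicate 3 was left out, and with all libraries under robust fitting, DESeq2 and thinned counts. Without day 7 replicate 1 the log2 fold change of *Tgm1* fell from 1.85 to 1.11.

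**Figure D4:**
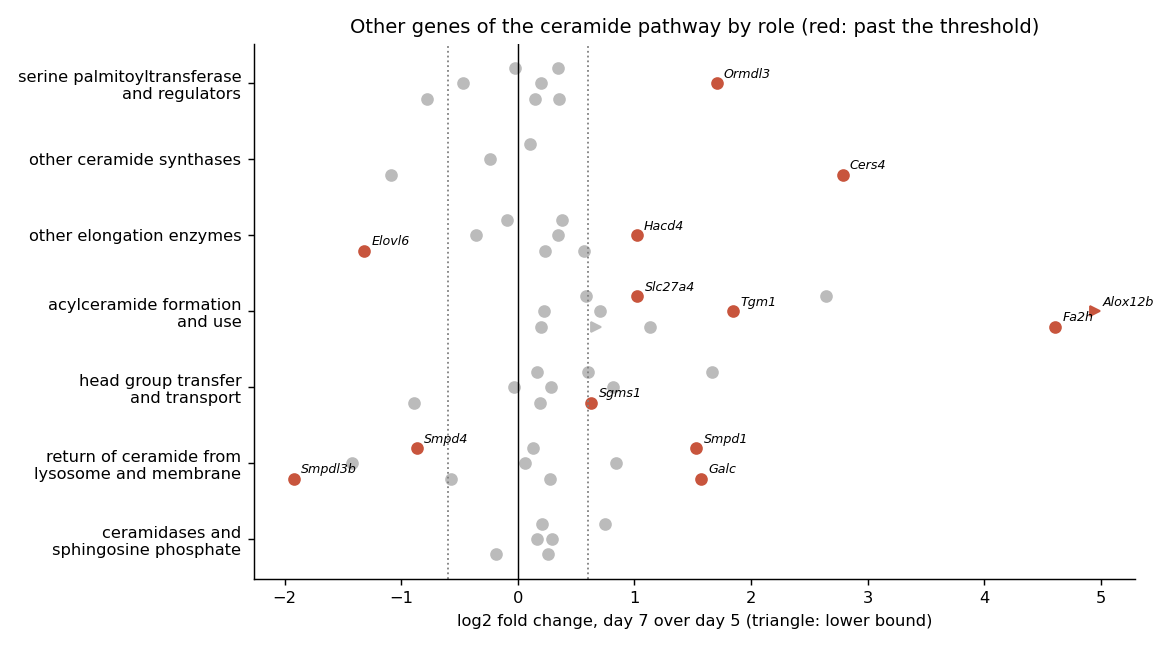
Log2 fold change of day 7 over day 5 for the other ceramide genes tested, apart from 1 that is not reported here, grouped by role, with 1 point per gene, red past the threshold and triangles for lower bounds. The 4 genes past the threshold in the acylceramide group all lie to the right of 0, while the group of ceramidases and sphingosine phosphate genes has no gene past the threshold.

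At the entry to the pathway, 1 of 8 tested genes rose. This was *Ormdl3*, an inhibitor of serine palmitoyltransferase, at 12.9 ± 3.55 and then 42.5 ± 14.8 CPM (log2 fold change 1.71 ± 0.30, edgeR adjusted p = 0.00112). Among the other ceramide synthases 1 of 4 rose, *Cers4*, from 4 counts at day 5 to 31 at day 7 (log2 fold change 2.78 ± 0.71, edgeR adjusted p = 0.0142). It was not past the threshold without day 5 replicate 1 or 3 or day 7 replicate 2. Among 8 other elongation genes 1 rose and 1 fell. *Elovl6* had 175 ± 19.2 CPM at first and 70.3 ± 7.68 CPM later, a fitted change of -1.32 ± 0.19 on the log2 scale (edgeR, adjusted p = 0.000207). *Hacd4*, for a dehydratase of the elongation cycle, rose from 12.5 to 25.1 CPM (edgeR, adjusted p = 0.0208), and was lost when day 5 replicate 1 or 3 or day 7 replicate 2 was left out. *Elovl4* thus rose in the organoids in which *Elovl6*, its relative for shorter chains, fell.

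Genes for the head groups and their removal passed in both directions. *Sgms1*, a sphingomyelin synthase gene, was the 1 of 9 head-group genes past the threshold, at 51.4 ± 4.53 and then 79.6 ± 1.78 CPM (edgeR, adjusted p = 0.0431). It did not pass with the mouse as a block (adjusted p = 0.0510), with library totals alone as the scaling, with a log2 threshold of 1, or without any day 5 replicate or day 7 replicate 2. Among 11 genes listed for the return of ceramide from lysosome and membrane, 3 rose and 2 fell. This list also holds the ceramidase genes *Asah1* and *Asah2*, which did not pass. *Smpd1*, the acid sphingomyelinase, which frees ceramide from sphingomyelin, rose by 1.53 ± 0.34 on the log2 scale, from 5.57 CPM up to 16.6 CPM (edgeR, adjusted p = 0.00544), though it did not pass without day 5 replicate 2. *Galc*, for galactosylceramidase and named after its values were seen, went from 3.98 to 12.1 CPM (edgeR, adjusted p = 0.0115). It was lost without day 5 replicate 2 or 3 or day 7 replicate 2. *Smpdl3b*, a membrane-bound relative of *Smpd1*, fell from 13.9 ± 1.07 to 3.70 ± 1.04 CPM (edgeR, adjusted p = 0.00142). *Smpd4*, a neutral sphingomyelinase gene, went from 25.2 to 13.9 CPM (edgeR, adjusted p = 0.0427) and passed in only 1 of the 6 fits that left out a library, the one without day 7 replicate 3. It also did not pass under DESeq2, with thinned counts or with a log2 threshold of 1. None of 6 other ceramidase and sphingosine phosphate genes passed.

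Some markers of a keratinising epithelium were also higher at day 7. Of 12 such markers 11 were tested, 6 rose and 0 fell, where 7.22% of all genes tested were higher and 4.82% lower. The others tested, *Ivl*, *Krt1*, *Krtdap*, *Tgm3* and *Krt6a*, did not pass, and the same percentages stand behind each marker list. The summed level of the 12 was 3120 to 4678 CPM at day 5 and 5175 to 7564 CPM at day 7, lowest at day 7 in mouse 3. *Sprr1a*, a cornified envelope precursor, had 63.5 ± 16.3 and then 735 ± 206 CPM, and *Krt10*, the keratin of suprabasal cells, 103 ± 12.2 and 434 ± 176 CPM. The late markers were at low levels, and some of them rose. *Loricrin*, for a main protein of the cornified envelope, had 7 counts over the day 5 libraries and 78 over those of day 7 (edgeR, adjusted p = 0.000315), and *Flg*, for filaggrin, had 1 and 16 (edgeR, adjusted p = 0.0335). *Flg* met the filter on low values only thanks to day 7, so its direction was partly fixed by the filter. *Flg2* was at 0 in all libraries and *Krt1* had 4 counts in all. Sebocytes also make very long lipids, and of 8 sebocyte markers with counts 2 rose, *Cidea* and *Dgat2*, while the summed level was 318 to 336 CPM at day 5 and 309 to 487 CPM at day 7, with *Mc5r* at 0. The part of any of these cell types in the results was not tested. Markers of duct epithelium summed to 14325 to 18111 CPM at day 5 and 11413 to 15805 CPM at day 7, and 1 of 7, *Krt8*, fell. Macrophage markers summed to 8.03 to 10.7 and 9.30 to 13.9 CPM, with 9 of 12, among them *Csf1r* and *Adgre1*, at 0 in all libraries. Of the 2 tested, *Cd68*, a lysosomal protein gene, rose from 7 counts to 39 (edgeR, adjusted p = 0.0151). Endothelial markers summed to 12.4 to 14.1 and 14.2 to 29.9 CPM, with *Cdh5* at 0, and fibroblast markers to 0.502 to 1.65 and 2.30 to 3.92 CPM, with *Col1a2* at 0. No gene of these last lists passed.

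For the genes of joining, capping and export, the most similar patterns were sought by Pearson correlation of log2 CPM over the 6 libraries among the 8170 genes that averaged 10 CPM or more. *Cers3* was closest to *Fbxo38* (0.995), *Serpinb3a* (0.992) and *Ell2* (0.991). *Ugcg* was closest to *Sdf2* (0.991), *Prkaca* (0.986) and *Foxa1* (0.981), and *Abca12* to *Rilpl2* (0.982), *Marveld2* (0.947) and *Trabd* (0.926). These are the highest of 8170 values over 6 points that share mice and days, and they are given as a description.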

How the data were processed

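RNA of 6 libraries was sequenced with the QuantSeq 3′ kit. The authors aligned reads to GRCm39 and deposited whole-number read counts per Ensembl gene ID, not normalised. The aligner, counter and strand setting are not given in the sources used here. Per the labels, same-numbered libraries came from the same mouse, and their deviations from the day means correlated at 0.14, -0.10 and 0.16.

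Entries that name no gene were left out. Names and coordinates were taken from GENCODE vM39 by ID (43465 of 47643 matched), and promoters from RefSeq (GRCm38.p6), which matched 9 of the 10 genes. Genes counted at least once in 2 or more libraries entered edgeR 4.0.16 (R 4.3.3), with TMM scaling, the quasi-likelihood F test and a model of day alone. Benjamini-Hochberg adjustment ran over all 15792 genes tested. SE was taken from the F statistic. Count ratios carry exact binomial intervals, which cover counting error only. The fit was tested on simulated data.

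Shares were tested in SciPy 1.17.1. Alternatives were other scalings (DESeq2 size factors, library totals), no filter, filterByExpr, the mouse as a block, robust fitting, DESeq2 1.42.0, thinned counts, a log2 threshold of 1 and leaving out each library. The members and lists were chosen with earlier results of these data known. All 10 members were named. Of the other pathway genes, up to 2 with the smallest p past the threshold were named per direction and role (1 is not reported here), and for *Abca12*, *Cers3* and *Ugcg* the 3 genes with the highest correlation. Genes named outside this rule (*Slc27a4*, *Tgm1*, *Galc*, *Cers2*, *Cers5*, *Elovl5* and markers) were chosen after their values were seen.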

Additional observations from a re-analysis of the deposited data

How the results depend on the processing

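Of 177 values for single genes and shares under the alternatives, 171 counted as kept. For a single gene this meant the same direction and the same side of the threshold. For a share, which has no threshold, it meant the same direction and a move smaller than the larger SD of the 2 days. Fits in which a gene was filtered out are not among the 177. For the 8 members that did not pass, kept meant not passing again. The *Degs2* share could not move when a day 5 library was left out, since all its day 5 shares were 0. The 171 are thus a description and no measure of support. *Elovl4* passed in all alternatives, with adjusted p from 2.16e-19 to 0.000625 and a log2 fold change from 2.75 to 3.27 when 1 library was left out. *Degs2* passed in all that tested it (adjusted p from 9.05e-08 to 0.0158), but filterByExpr removed it, so that 1 member passed there. With 0 counts in every day 5 library it could only come out higher, so these fits are not separate support for its direction. With no filter, and with the mouse as a replicate block, 3 members passed, because *Cers3* joined. Leaving out 1 library gave 2 to 3. The replicate block changed the call of *Cers3* and, among the 14 other ceramide genes past the threshold, of *Sgms1*. With the block 16 other ceramide genes passed, so further genes joined, and which these were was not looked up. Over the whole series it gave 2339 genes past the threshold against 1901. *Abca12* ranged from -0.068 to 0.449 without 1 library and reversed without day 5 replicate 1, and the difference in the *Elovl1* share reversed without day 5 replicate 1 (-0.424 percentage points) and without day 7 replicate 3, in a range of -2.16 to 2.55. The cause was not tested.

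Of the other ceramide genes 14 passed, between 11 and 17 under the alternatives on all libraries, and 7 to 18 without 1 library: 8 without day 5 replicate 1, 8 without day 5 replicate 2, 7 without day 5 replicate 3 and 8 without day 7 replicate 2. Over all genes the number ran from 1291 to 2405 on all libraries (1291 with a log2 threshold of 1) and from 794 to 2575 without 1 library, with 892, 794 and 890 without day 5 replicates 1, 2 and 3 and 2472, 1045 and 2575 without day 7 replicates 1, 2 and 3. With library totals as the scaling, the median log2 fold change of all genes was -0.10 and 950 genes were higher and 1008 lower, against 1140 and 761. Genes under about 3 counts per library (*Sptlc3*, *Smpd3*) are limited by depth.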
